A study of Mus musculus with 18 samples.

Results

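The immunity-related GTPases (IRG genes) Irgm1, Irgm2, Igtp, Iigp1, Tgtp1 and Tgtp2 and the very large inducible GTPase Gvin1 were followed in mouse pancreatic tumor cells with and without a knockout of the histone demethylase gene Kdm3a. They were taken by symbol, and all 7 were found among the 24493 genes of the expression table. RNA sequencing covered 18 libraries of tumor cells of the lines 6419c5 and 6694c2 (strain C57BL/6), which had been implanted under the skin, left untreated and then sorted from the tumors. In 6419c5 there were 2 Kdm3a-KO clones, KO1 and KO2, and WT cells, and in 6694c2 likewise 2 Kdm3a-KO clones, KO1 and KO2, and WT cells, with 3 libraries in each of the 6 groups. Each KO group is 1 clone, so its 3 libraries measure that clone; the sources used here do not give the age of the animals, the way Kdm3a was disrupted, the marker used in the sort, or how many tumors the libraries of each group represent. The p-values therefore measure the spread between these libraries, which may be technical.

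IRG proteins are GTPases that mouse cells make in response to interferon gamma, a cytokine of T and natural killer cells. The effector IRG proteins, among them Iigp1 and the Tgtp proteins, gather on the vacuoles in which parasites such as Toxoplasma live and help to break them, while Irgm1, Irgm2 and Igtp sit on the membranes of the cell's own organelles and keep the effectors inactive there. Genes that respond to interferons carry GAS and ISRE elements in their promoters; interferon-regulatory factors bind the ISRE elements.

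The genes lie in a few clusters of build GRCm38 (mm10), with positions from the GENCODE M21 annotation. On chromosome 11 Irgm1 (48861968 to 48871683), Tgtp1 (48985327 to 48994172) and Tgtp2 (49057194 to 49064206) are on the minus strand, and Igtp (58199556 to 58207591) and Irgm2 (58199618 to 58222782) are on the plus strand. Iigp1 (60376027 to 60392634, plus strand) is on chromosome 18, and Gvin1 (106156556 to 106215326, minus strand) is on chromosome 7. The annotated Irgm2 gene spans most of Igtp, so reads in the overlap could be credited to either.

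The sequences of the transcripts limit how well some of these genes can be told apart. Of the distinct 31-base words in the GENCODE transcripts of Gvin1, 99.0% also occur in transcripts of the neighbouring copy Gm4070, 83.2% of those of Tgtp1 occur in Tgtp2, and 89.2% of those of Tgtp2 occur in Tgtp1. Igtp shares 15.9% of its words with Irgm2, Iigp1 shares 6.90% with other genes in all and Irgm1 2.20%. Values of Gvin1 apart from Gm4070, and of Tgtp1 apart from Tgtp2, are therefore uncertain, and their sums are given beside them.

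RefSeq promoter sequences of build GRCm38.p6, which run from 250 bases before to 50 bases after the start of a gene, were matched for 5 of the 7 genes. These starts can differ from those of the GENCODE positions given above. The promoters of Irgm1 (48871371 to 48871670), Irgm2 (58214727 to 58215026) and Tgtp1 (48992197 to 48992496) lie inside the GENCODE spans of these genes. The stretches that hold interferon response motifs are shown because the genes moved together in the results that follow. Capitals mark matches to GAS (TTCNNNGAA) or to the core of ISRE (GAAANNGAA), searched on both strands, and each sequence reads 5′ to 3′ on the strand of its gene. In Irgm1 the 2 ISRE core matches overlap.
Irgm1, chr11:48871426-48871465, minus strand: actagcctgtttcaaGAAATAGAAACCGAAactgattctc
Irgm2, chr11:58214887-58214931, plus strand: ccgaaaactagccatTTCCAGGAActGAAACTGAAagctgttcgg
Igtp, chr11:58199496-58199540, plus strand: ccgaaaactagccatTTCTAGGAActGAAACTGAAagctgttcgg
Tgtp1, chr11:48992305-48992349, minus strand: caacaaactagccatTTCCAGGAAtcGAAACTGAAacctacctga
Tgtp2, chr11:49064264-49064308, minus strand: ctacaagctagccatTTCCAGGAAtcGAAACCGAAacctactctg

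All 5 promoters held an ISRE core match and 4 of them, all but that of Irgm1, also a GAS match. In these 4 the GAS match stood 2 bases before the ISRE core. Of the 32851 promoters in the table, 8.30% held a GAS match, 8.56% an ISRE core match and 1.07% both. Among 7 other IRG genes with a promoter entry, 3 held an ISRE core match and 2 both motifs. Among 5 genes of the guanylate-binding proteins, another GTPase family, 5 held an ISRE core match and 2 both. A GAS match followed after 2 bases by an ISRE core was found in 8 promoters of the whole table (0.0244%), those of Irgm2, Igtp, Tgtp1, Tgtp2, Gm12185, which is another IRG gene, Adar, Olfr382 and LOC115488470. The form of the ISRE core and this arrangement were chosen after these promoters had been seen, so the counts are a description. Over the aligned promoters Irgm2 and Igtp were 72.8% identical and Tgtp1 and Tgtp2 67.0%, against 42.4% to 49.7% for the other pairs. A motif match describes the letters of the window and is not evidence of binding.

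The unit is TPM, a level corrected for transcript length and scaled to the same total in every library, so that genes can be compared. The deposited values carry no read counts, so the depth of the libraries is unknown; 12213 to 13590 genes reached 1 TPM in a library, and the microRNA gene Mir6236 took 6.04% to 17.4% of the TPM. The targeted gene Kdm3a averaged 22.6 ± 1.72 TPM in KO1 and 14.9 ± 3.49 TPM in KO2, against 31.7 ± 7.13 TPM in WT, of 6419c5, and 27.5 ± 2.02 TPM in KO1 and 28.1 ± 2.56 TPM in KO2, against 48.8 ± 16.3 TPM in WT, of 6694c2 (SD, n = 3 each). Its transcript was thus lower but present, with a log2 difference of -0.75 over both lines (limma adjusted p = 7.99e-04); KO1 of 6419c5 alone did not pass (-0.45, limma adjusted p = 0.299). The 6 epithelial markers, Krt8, Krt18, Krt19, Krt7, Epcam and Cdh1, were detected in every group. They summed to 9696 to 10763 TPM in KO1 and 9291 to 10113 TPM in KO2, against 10188 to 12183 TPM in WT, of 6419c5, and to 5379 to 5934 TPM in KO1 and 5701 to 7353 TPM in KO2, against 6506 to 8235 TPM in WT, of 6694c2. In KO, 2 of the 6 were called lower in 6419c5, where 3.4% of tested genes were, and 3 in 6694c2, where 5.79% were; Epcam fell, with log2 differences of -2.02 in 6419c5 (limma adjusted p = 1.55e-04) and -3.03 in 6694c2 (limma adjusted p = 9.97e-07). Markers of other cells were also present, and the part of any change in the mix of cells was not tested. The 10 macrophage markers summed to 205 to 8306 TPM. Earlier work on these data had set apart 3 libraries, 6419c5 WT replicate 3, 6694c2 KO1 replicate 1 and 6694c2 KO2 replicate 3. These had the highest macrophage sums of their groups (7606, 6228 and 3419 TPM). Without them all 7 genes were called higher in KO in each line.

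All 7 genes were called higher in KO than in WT in 6419c5, where 3.97% of the 13422 tested genes were called higher, in 6694c2, where 14.7% were, and over both lines, where 12.5% were. A gene was called at a Benjamini-Hochberg adjusted p under 0.05 in limma, on log2(TPM + 1), a scale on which changes at low TPM come out too small. The median log2 difference of the 7 was 2.96 in 6419c5, against 0.01 for all tested genes, and 4.12 in 6694c2, against 0.15. All 7 passed the filter for testing, an average of 1 TPM or more. The 6 KO libraries all exceeded the 3 WT libraries for 7 of 7 genes in each line, as they did for 4.6% of tested genes in 6419c5 and 13.2% in 6694c2. In sorted cells taken in bulk, more cells that express a gene and more RNA of it per cell cannot be told apart.

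The 3 regulatory members, Irgm1, Irgm2 and Igtp, rose in every Kdm3a-KO clone of both lines. Irgm1, which also takes part in autophagy and in the control of mycobacteria in mice, had 112, 113 and 137 TPM in KO1 and 66.8, 63.8 and 72.2 TPM in KO2, against 43.5, 28.5 and 33.6 TPM in WT, of 6419c5. In 6694c2, Irgm1 had 107, 111 and 112 TPM in KO1 and 149, 143 and 167 TPM in KO2, against 20.1, 16.0 and 23.6 TPM in WT. Every KO library was above every WT library of its line, and in 6419c5 the KO1 libraries were the highest while in 6694c2 the KO2 libraries were. The log2 difference, KO minus WT with both clones given equal weight, was 1.35 in 6419c5 (SE 0.13, limma adjusted p = 7.41e-06) and 2.66 in 6694c2 (SE 0.13, limma adjusted p = 2.57e-09).

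Irgm2 had the lowest mean of the 7 genes in all 4 KO groups. Its libraries held 37.3, 43.2 and 44.4 TPM in KO1 and 24.5, 25.7 and 29.2 TPM in KO2, against 11.6, 8.67 and 8.75 TPM in WT, of 6419c5. The corresponding Irgm2 values of 6694c2 were 34.9, 40.2 and 40.0 TPM in KO1 and 49.4, 51.0 and 56.3 TPM in KO2, against 5.45, 4.67 and 5.56 TPM in WT. The 3 groups of each line did not overlap. The log2 difference was 1.69 in 6419c5 (SE 0.10, limma adjusted p = 1.33e-07) and 2.88 in 6694c2 (SE 0.10, limma adjusted p = 1.95e-10).

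Igtp, also called Irgm3, is found on the endoplasmic reticulum and on lipid droplets. It had 94.4, 115 and 123 TPM in KO1 and 53.2, 48.2 and 74.0 TPM in KO2, against 19.0, 14.5 and 14.4 TPM in WT, of 6419c5. In 6694c2, Igtp had 95.7, 113 and 114 TPM in KO1 and 176, 170.0 and 175 TPM in KO2, against 8.45, 14.3 and 8.84 TPM in WT. Again no group of a line overlapped another, with the same order of groups as for Irgm1. The log2 difference was 2.26 in 6419c5 (SE 0.16, limma adjusted p = 5.89e-07) and 3.61 in 6694c2 (SE 0.16, limma adjusted p = 1.49e-09), the largest of the 3 regulators in each line.

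**Figure D1:**
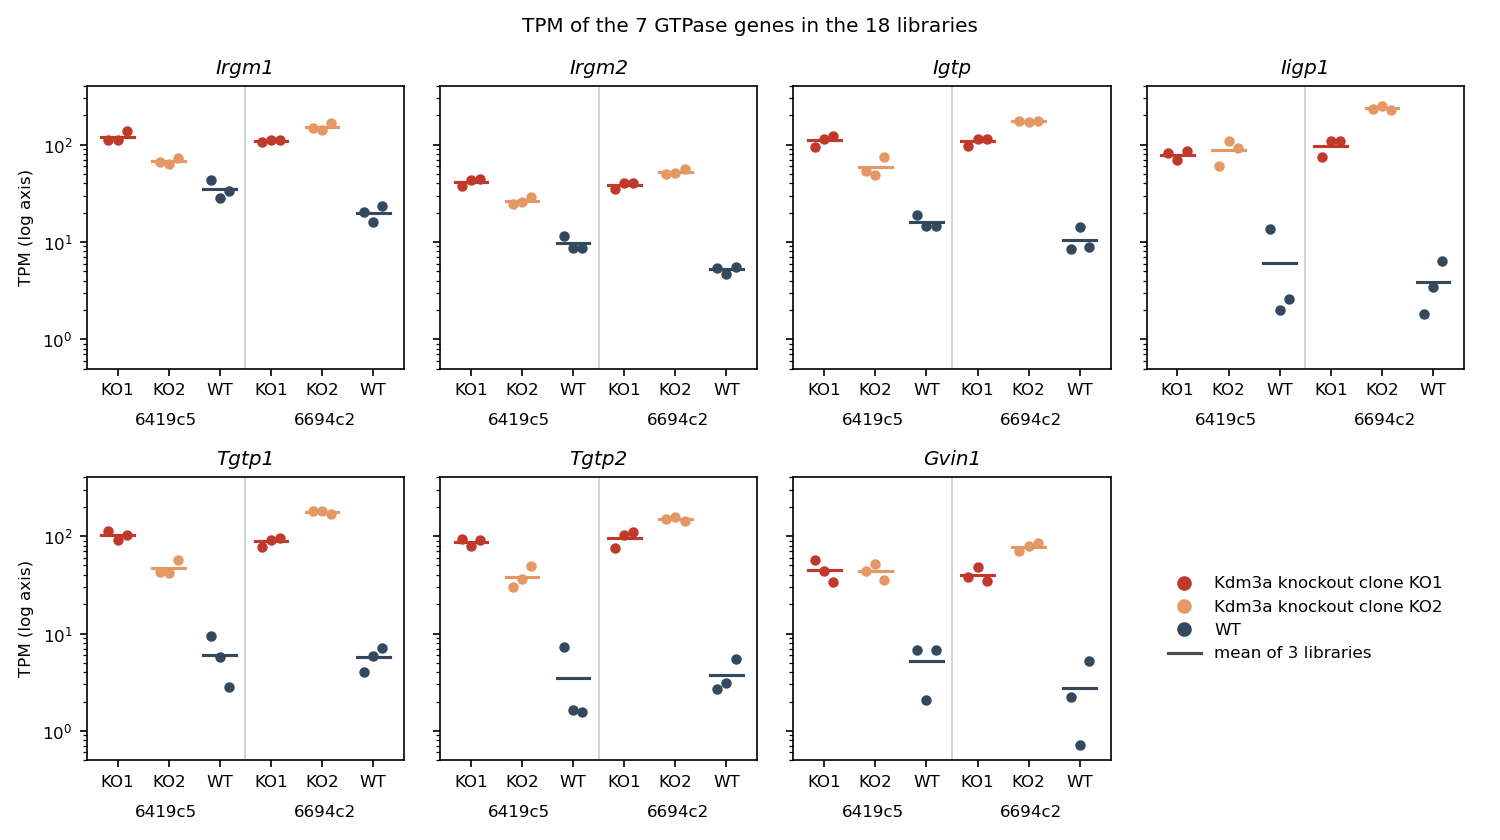
TPM (log axis) of Irgm1, Irgm2, Igtp, Iigp1, Tgtp1, Tgtp2 and Gvin1 in each library, with KO1, KO2 and WT of 6419c5 on the left of each panel and those of 6694c2 on the right; points are libraries and bars are means of 3. All 6 KO libraries of a line lie above its 3 WT libraries in every panel.

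The effectors rose as well, with larger log2 estimates than the regulators in both lines; this difference between genes was not tested. Iigp1, which encodes an effector that loads early onto parasite vacuoles, had 81.6, 69.8 and 85.8 TPM in KO1 and 60.3, 110.1 and 92.7 TPM in KO2, against 13.5, 2.02 and 2.61 TPM in WT, of 6419c5. In 6694c2, Iigp1 had 74.1, 109 and 108 TPM in KO1 and 230.0, 251 and 229 TPM in KO2, against 1.83, 3.44 and 6.39 TPM in WT. The clones of 6419c5 overlapped and those of 6694c2 did not; WT replicate 1 of 6419c5 was well above the other WT libraries of that line but far below all KO libraries. The log2 difference was 3.94 in 6419c5 (SE 0.40, limma adjusted p = 1.73e-05) and 5.06 in 6694c2 (SE 0.40, limma adjusted p = 4.56e-07). Without WT replicate 1 of 6419c5 the log2 difference in that line was 4.65 (limma adjusted p = 4.03e-07).

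Tgtp1 and Tgtp2 encode near-identical GTPases that serve as effectors. Tgtp1 had 113, 92.2 and 104 TPM in KO1 and 42.4, 42.2 and 56.2 TPM in KO2, against 9.48, 5.80 and 2.85 TPM in WT, of 6419c5. In 6694c2, Tgtp1 had 77.5, 92.1 and 95.0 TPM in KO1 and 179.6, 181 and 168 TPM in KO2, against 4.03, 5.93 and 7.07 TPM in WT. The 3 groups of a line were separate, KO1 highest in 6419c5 and KO2 highest in 6694c2. Tgtp1 rose by 3.43 in 6419c5 (SE 0.23, limma adjusted p = 3.30e-07) and by 4.26 in 6694c2 (SE 0.23, limma adjusted p = 8.90e-09) on the log2 scale.

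Tgtp2 followed the same order of groups. Its values were 94.0, 78.7 and 91.4 TPM in KO1 and 29.9, 36.4 and 49.0 TPM in KO2, against 7.35, 1.64 and 1.55 TPM in WT, of 6419c5. They were 76.3, 102 and 111 TPM in KO1 and 149, 159 and 141 TPM in KO2, against 2.71, 3.12 and 5.47 TPM in WT, of 6694c2. The groups of each line were separate here too, and 6419c5 WT replicate 1 was again the highest of its group. The log2 difference of Tgtp2 was 3.93 in 6419c5 (SE 0.31, limma adjusted p = 1.30e-06) and 4.70 in 6694c2 (SE 0.31, limma adjusted p = 5.90e-08). With both copies summed, the difference was 3.78 in 6419c5 (limma adjusted p = 6.50e-07) and 4.59 in 6694c2 (limma adjusted p = 2.33e-08), so it does not rest on how reads were split between them.

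Gvin1 belongs to the very large inducible GTPases, whose role is less well known. It had 56.7, 43.5 and 33.8 TPM in KO1 and 43.6, 52.3 and 35.0 TPM in KO2, against 6.73, 2.09 and 6.74 TPM in WT, of 6419c5. In 6694c2, Gvin1 had 38.0, 48.7 and 34.3 TPM in KO1 and 70.6, 79.0 and 84.9 TPM in KO2, against 2.24, 0.713 and 5.27 TPM in WT. The clones of 6419c5 overlapped, those of 6694c2 did not, and all KO libraries were above WT. The log2 difference was 2.96 in 6419c5 (SE 0.35, limma adjusted p = 7.44e-05) and 4.12 in 6694c2 (SE 0.35, limma adjusted p = 9.67e-07). For the sum of Gvin1 and Gm4070 it was 2.33 in 6419c5 (limma adjusted p = 1.68e-04) and 3.94 in 6694c2 (limma adjusted p = 3.40e-07), a comparison added after the shared sequence had been seen.

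Each clone was also set against its own WT alone. The 7 genes were called higher in 6419c5 KO1 (3.14% of tested genes were higher), in 6419c5 KO2 (7.97%), in 6694c2 KO1 (14.7%) and in 6694c2 KO2 (10.6%). The clones of a line share their WT libraries, so these are not independent. The smallest difference was that of Irgm1 in 6419c5 KO2, 0.94 on the log2 scale (95% interval 0.63 to 1.25, limma adjusted p = 4.77e-04), and the largest that of Iigp1 in 6694c2 KO2, 5.71 (95% interval 4.72 to 6.71, limma adjusted p = 7.18e-07).

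**Figure D2:**
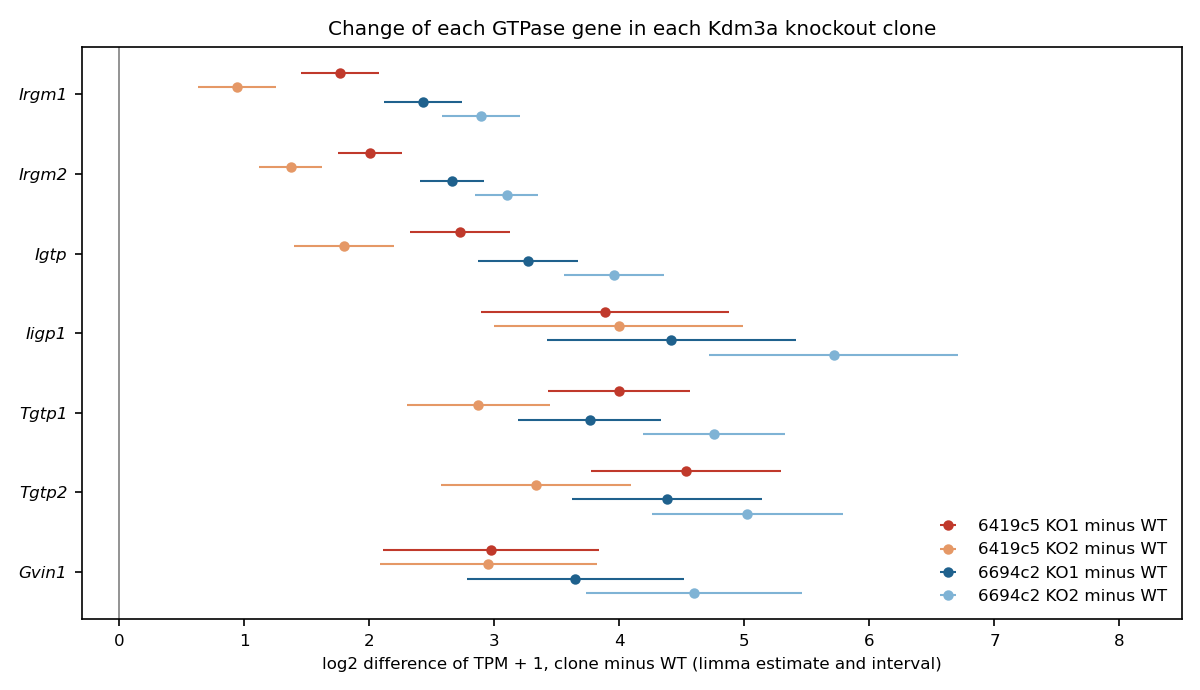
Log2 difference of TPM + 1 between each Kdm3a-KO clone and the WT libraries of its line for the 7 genes, as limma estimates with 95% intervals. No interval reaches 0, and the estimates run from 0.94 for Irgm1 in 6419c5 KO2 to 5.71 for Iigp1 in 6694c2 KO2.

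The order of the genes by level differed between KO and WT cells. In WT cells of both lines Irgm1 was highest, with 35.2 TPM in 6419c5 and 19.9 TPM in 6694c2, then Igtp, and each stood above the next gene in all libraries. Below them the genes from Irgm2 down to Tgtp2 in 6419c5, and from Tgtp1 down to Gvin1 in 6694c2, overlapped with their neighbours. In KO2 clones Iigp1 was highest, with 87.7 TPM in 6419c5, where it overlapped with Irgm1, and 237 TPM in 6694c2, where all its libraries exceeded those of Tgtp1. In both KO1 clones Irgm1 led, with 121 TPM in 6419c5 and 110.0 TPM in 6694c2, and overlapped with Igtp.

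The sum of the effectors Iigp1, Tgtp1 and Tgtp2, divided by the sum of the regulators Irgm1, Irgm2 and Igtp, was 0.888 to 1.18 in KO1 and 0.918 to 1.37 in KO2, against 0.123 to 0.409 in WT, of 6419c5. In 6694c2 this ratio was 0.957 to 1.18 in KO1 and 1.35 to 1.62 in KO2, against 0.252 to 0.499 in WT. KO and WT libraries did not overlap in either line. The ratio was formed after the levels had been seen and is a description. Summed over all 7 genes, the level averaged 588 TPM in KO1 and 369 TPM in KO2, against 81.6 TPM in WT, of 6419c5, and 578 TPM in KO1 and 1020 TPM in KO2, against 51.7 TPM in WT, of 6694c2.

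The size of the knockout effect was compared between the lines, 6694c2 minus 6419c5. All 7 estimates were positive, from 0.77 to 1.35 on the log2 scale, and 3 passed the test, where 5.78% of tested genes were called higher. These were the regulators, with differences of 1.31 for Irgm1 (SE 0.18, limma adjusted p = 4.73e-04), 1.19 for Irgm2 (SE 0.14, limma adjusted p = 1.62e-04) and 1.35 for Igtp (SE 0.23, limma adjusted p = 0.00243). The 95% intervals of the others were -0.09 to 2.34 for Iigp1, 0.13 to 1.52 for Tgtp1, -0.16 to 1.70 for Tgtp2 and 0.10 to 2.22 for Gvin1, with limma adjusted p from 0.134 to 0.303, so a difference of the same size as in the regulators is within them. Without 6419c5 WT replicate 3, Tgtp1 passed as well (1.20, limma adjusted p = 0.0113), and Gvin1 passed without 6419c5 WT replicate 2 (1.60, limma adjusted p = 0.0444) or 6694c2 WT replicate 3 (1.63, limma adjusted p = 0.0348).

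The WT cells of the lines were compared as well. WT 6694c2 minus WT 6419c5 gave log2 differences of -0.79 for Irgm1 (limma adjusted p = 4.80e-04), -0.77 for Irgm2 (limma adjusted p = 9.29e-05) and -0.58 for Igtp (limma adjusted p = 0.0197). These 3 of 7 genes were called lower, as were 32.2% of tested genes, and the median over all tested genes was -0.22. Igtp did not pass with quantile normalization (-0.28, limma adjusted p = 0.284) or median-of-ratios scaling (-0.38, limma adjusted p = 0.176). The effectors had estimates of -0.26 for Iigp1, 0.01 for Tgtp1 and 0.27 for Tgtp2, none of which passed. Gvin1 had an estimate of -0.80 (limma adjusted p = 0.120), while the sum of Gvin1 and Gm4070 was called lower (-1.22, limma adjusted p = 0.0103).

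The clones of a line differed from each other. In 6419c5, KO2 was lower than KO1 in 5 of 7 genes, where 18.9% of tested genes were called lower: Irgm1 (-0.82), Irgm2 (-0.63), Igtp (-0.93), Tgtp1 (-1.13) and Tgtp2 (-1.20), with limma adjusted p from 0.00110 to 0.0218. Iigp1 (0.11, 95% interval -0.88 to 1.10) and Gvin1 (-0.02, 95% interval -0.89 to 0.85) did not pass. In 5 of 7 genes all KO2 libraries were below all KO1 libraries, as in 28.3% of tested genes. The call of Tgtp2 was lost without KO1 replicate 1 or 3 or KO2 replicate 1 or 2, with limma adjusted p up to 0.0876. In 6694c2, KO2 was higher than KO1 in all libraries for 7 of 7 genes, an arrangement that 25.1% of tested genes share, and 3 passed the test, Irgm2, Igtp and Tgtp1, where 5.27% were called higher. The sum of Tgtp1 and Tgtp2 did not pass (0.83, limma adjusted p = 0.117). Of the 7 genes, 6 had an unadjusted p under 0.05. The count of limma calls was 0 without any 1 of the KO1 libraries or of KO2 replicates 1 and 2 (4 to 6 at an unadjusted p under 0.05), 1 without KO2 replicate 3, and 5 without 6419c5 WT replicate 1.

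RNA of macrophage genes was present in the sorted cells. The 10 macrophage markers summed to 2317 to 8306 TPM in KO1 and 205 to 427 TPM in KO2, against 1229 to 7606 TPM in WT, of 6419c5. In 6694c2 they summed to 3273 to 6228 TPM in KO1 and 418 to 3419 TPM in KO2, against 138 to 1740 TPM in WT. All 10 were detected in every group. In 6419c5 KO2 all 10 were called lower than in WT, where 11% of tested genes were, while the 7 GTPase genes were called higher. In 6694c2 KO1, 7 of the 10 were called higher than in WT, where 14.7% of tested genes were. With the macrophage index, the mean log2 level of the 10 markers, as a covariate, 7 of 7 GTPase genes were called higher in each line and each clone. The index itself differed between groups, averaging 7.93 in KO1 and 3.73 in KO2 of 6419c5, and no other cell type was in this fit. The part of macrophages in the results was not tested. In the comparison of 6694c2 KO2 with KO1 the count of limma calls was 0 with that covariate (4 at an unadjusted p under 0.05), with estimates of 0.41 for Irgm2, 0.84 for Igtp and 0.65 for Tgtp1, against 0.44, 0.69 and 0.99 without it, and it was 4 in that of 6419c5 KO2 with KO1, Igtp being lost (limma adjusted p = 0.157).

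**Figure D3:**
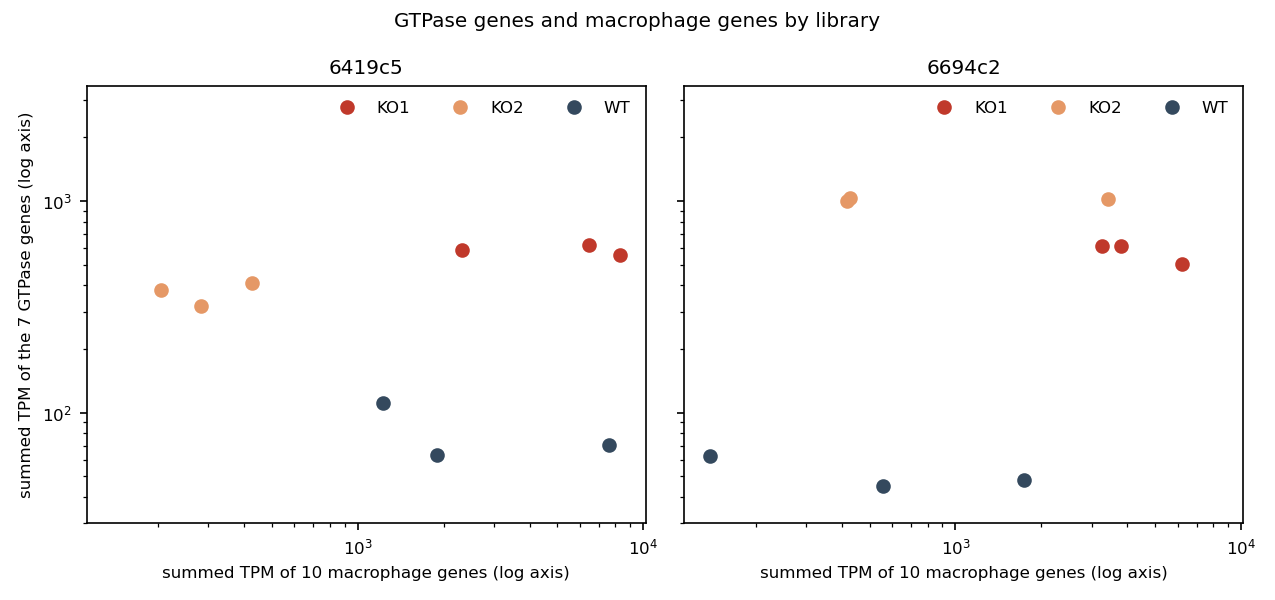
Summed TPM of the 7 GTPase genes against summed TPM of 10 macrophage markers in each library, both on log axes, for 6419c5 and 6694c2. The KO2 libraries of 6419c5 hold 205 to 427 TPM of macrophage markers, less than any WT library of that line, and more GTPase TPM than all of them.

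Markers of other cells were also set beside the GTPase genes. The 10 T and natural killer cell markers summed to 6.81 to 18.7 TPM in KO1 and 3.04 to 5.63 TPM in KO2, against 2.52 to 6.31 TPM in WT, of 6419c5, and to 21.6 to 26.2 TPM in KO1 and 7.72 to 17.5 TPM in KO2, against 1.83 to 3.43 TPM in WT, of 6694c2. Ncr1 was at 0 in KO1 and WT of 6419c5 and in WT of 6694c2, and Nkg7 in WT of 6419c5. In 6694c2 these sums were above WT in every KO library, as were the GTPase genes. In 6419c5 the sums of KO1 were all above WT, and those of KO2 overlapped with WT. The 8 fibroblast markers summed to 636 to 663 TPM in KO1 and 185 to 228 TPM in KO2, against 205 to 403 TPM in WT, of 6419c5, and to 520.0 to 759 TPM in KO1 and 85.6 to 653 TPM in KO2, against 118 to 193 TPM in WT, of 6694c2. The 7 neutrophil markers summed to 87.1 to 221 TPM in KO1 and 27.9 to 36.4 TPM in KO2, against 9.96 to 18.3 TPM in WT, of 6694c2, and the 7 endothelial markers to 19.0 to 194 TPM, 6.77 to 11.6 TPM and 2.45 to 3.35 TPM in the same order of groups. In 6694c2 the neutrophil and endothelial sums thus also lay above WT in every KO library. In 6419c5 the neutrophil sums were 32.1 to 48.1 TPM in KO1 and 8.26 to 20.8 TPM in KO2, against 22.9 to 37.7 TPM in WT. The endothelial sums of 6419c5 were 15.1 TPM or more in KO1, all above WT, and 4.67 to 5.83 TPM in KO2, against 4.27 to 8.20 TPM in WT. The part of these cells in the results was not tested.

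RNA of interferon genes was low in the sorted cells, and the interferon proteins were not measured. None of the 11 interferon genes examined reached the mean of 1 TPM required for testing. Ifng, which encodes interferon gamma, was listed at 0 in all 3 libraries of 6419c5 KO1 and had 0, 0.189 and 0.0656 TPM in 6419c5 KO2, against 0 in all 3 WT libraries of 6419c5. In 6694c2 it had 0.898, 0.0708 and 0.386 TPM in KO1 and 0.140, 0.517 and 0 TPM in KO2, against 0 in all 3 WT libraries. Ifnb1, which encodes interferon beta, stayed at or below 0.260 TPM in all libraries.

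Of 12 genes examined for interferon gamma receptors, kinases and transcription factors, 2 were called higher in 6419c5, where 3.97% of all tested genes were, and 6 in 6694c2, where 14.7% were. Irf1, a transcription factor that binds ISRE elements, had 127, 146 and 149 TPM in KO1 and 82.8, 84.0 and 98.7 TPM in KO2, against 55.9, 57.9 and 56.9 TPM in WT, of 6419c5. In 6694c2, Irf1 had 101, 95.7 and 106 TPM in KO1 and 116, 122 and 118 TPM in KO2, against 33.6, 38.0 and 27.5 TPM in WT. It rose by 0.95 in 6419c5 (limma adjusted p = 7.68e-06) and by 1.71 in 6694c2 (limma adjusted p = 6.22e-09) on the log2 scale. For Stat2 the mean of both clones was higher by 0.61 (limma adjusted p = 0.00589) and 1.64 (limma adjusted p = 2.75e-07) in the same order of lines. Against WT of 6419c5, Stat2 differed by 1.13 in KO1 (limma adjusted p = 1.7e-04) and by 0.09 in KO2 (limma adjusted p = 0.756), which did not pass. Irf8, Irf9, Irf2 and Jak1 passed in 6694c2 and not in 6419c5, and of these the difference between the lines passed its own test for Irf8 (2.36, limma adjusted p = 0.0218). The Irf8 estimates of the 6419c5 clones against WT were opposed, 0.92 in KO1 (limma adjusted p = 0.375) and -1.66 in KO2 (limma adjusted p = 0.0247). In 6694c2 they were 2.55 in KO1 (limma adjusted p = 0.00171) and 1.42 in KO2 (limma adjusted p = 0.0595). The median estimates of the 10 macrophage markers had the same signs, 1.06 in KO1 and -3.26 in KO2 of 6419c5. In 6694c2 these medians were 2.88 in KO1 and 0.47 in KO2. The part of macrophages in the Irf8 values was not tested. The receptor genes Ifngr1 and Ifngr2 did not pass in 6419c5 (-0.09 and 0.24) or in 6694c2 (0.35 and 0.15), with limma adjusted p from 0.0513 to 0.796.

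Of 10 genes examined for inhibitors of cytokine signalling, 3 were called higher in each line, namely Socs1, Usp18 and Cish. Of all tested genes, 3.97% were called higher in 6419c5 and 14.7% in 6694c2. Socs1, which blocks the kinases at the receptor, averaged 41.3 TPM in KO1 and 23.8 TPM in KO2, against 16.8 TPM in WT, of 6419c5, and 19.0 TPM in KO1 and 31.2 TPM in KO2, against 4.79 TPM in WT, of 6694c2. Its log2 difference was 0.87 in 6419c5 (limma adjusted p = 0.00333) and 2.16 in 6694c2 (limma adjusted p = 2.64e-07). Against WT of 6419c5, Socs1 differed by 1.26 in KO1 (limma adjusted p = 7.08e-04) and by 0.48 in KO2 (limma adjusted p = 0.0931), which did not pass. The autophagy genes whose products help to place IRG proteins on vacuoles gave 0 of 11 limma calls in 6419c5 (2 at an unadjusted p under 0.05), with a median of -0.03. In that line 3.97% of all tested genes were called higher and 3.4% lower. In 6694c2, 3 of 11 were called higher, Atg3, Atg5 and Gabarap, with a median of 0.17, where 14.7% of all tested genes were called higher. Of 6 tested partners that tag vacuoles with ubiquitin or bind it, 2 were called higher in 6419c5, against 3.97% of all tested genes. In 6694c2, 3 were called higher, against 14.7%. Called in both lines were the ubiquitin-like gene Ubd (4.13 in 6419c5, limma adjusted p = 3.30e-08, and 3.97 in 6694c2, limma adjusted p = 5.35e-09) and Trim21. Against WT of 6419c5, Trim21 differed by 0.89 in KO1 (limma adjusted p = 5.57e-04) and by 0.03 in KO2 (limma adjusted p = 0.9165), which did not pass.

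Other IRG genes rose with the 7. Of 10 tested, 7 were called higher in 6419c5, with a median of 1.33, where 3.97% of all tested genes were called higher. In 6694c2, 9 were called higher, with a median of 2.35, where 14.7% of all tested genes were. Gm4841, which is also on chromosome 18, rose by 2.96 in 6419c5 (limma adjusted p = 1.10e-05) and 4.13 in 6694c2 (limma adjusted p = 1.23e-07), and Ifi47 on chromosome 11 by 1.57 (limma adjusted p = 3.17e-07) and 3.33 (limma adjusted p = 6.46e-11) in the same order. Irgq, an IRG-related gene, had estimates of 0.03 in 6419c5 (limma adjusted p = 0.920) and -0.18 in 6694c2 (limma adjusted p = 0.181). Of the 3 other very large GTPase genes, none was called by limma in 6419c5 (0 also at an unadjusted p under 0.05). All 3 were called higher in 6694c2, where 14.7% of all tested genes were. Among them was Gm4070 (2.95, limma adjusted p = 0.0140), which was listed at 0 in 6419c5 KO2 replicate 1 and 6694c2 WT replicate 1. Values of Gm4070 apart from Gvin1 are uncertain because of their shared sequence. The difference between the lines passed for Gm1966 (1.57, limma adjusted p = 0.02875), annotated as an unprocessed pseudogene. The guanylate-binding proteins are a second family of interferon-inducible GTPases that act on the same vacuoles. They were called higher for 10 of 11 genes in 6419c5, against 3.97% of all tested genes, and for 11 of 11 in 6694c2, against 14.7%.

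**Figure D4:**
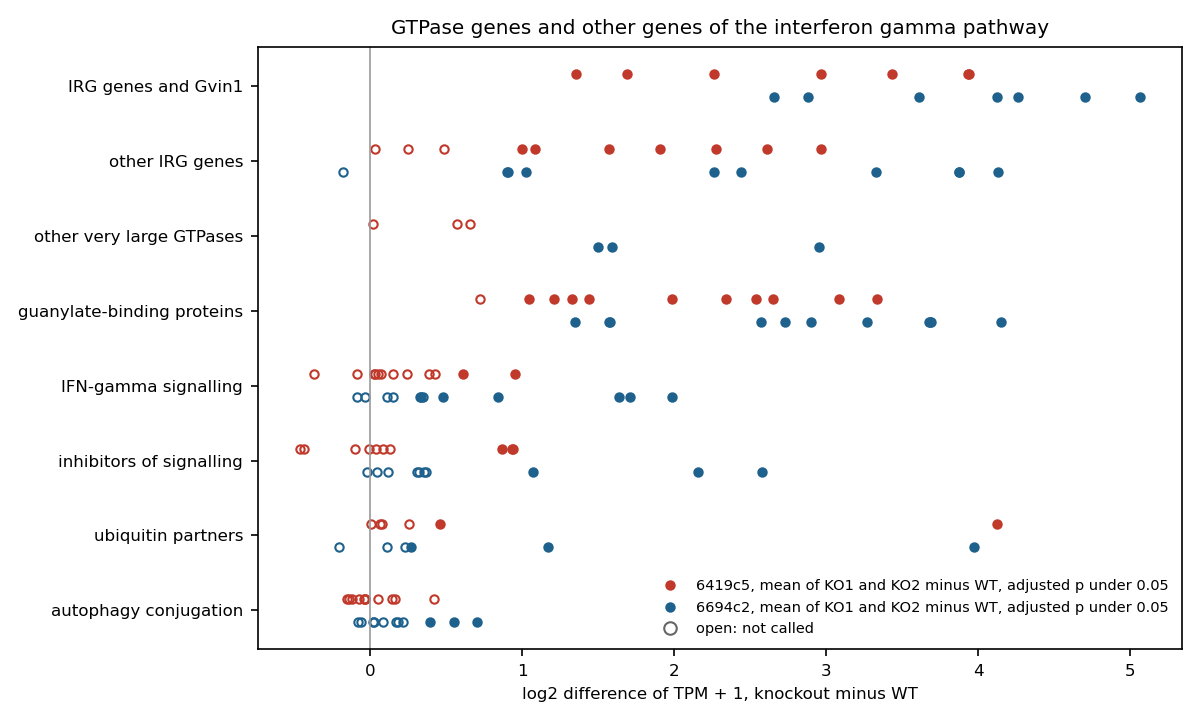
Log2 difference of TPM + 1, KO minus WT with both clones of equal weight, in 6419c5 and 6694c2 for the 7 GTPase genes and 7 lists of related genes; filled points passed at an adjusted p under 0.05. In 6694c2 the IRG and guanylate-binding genes reach above 4, while autophagy genes lie within 1 of 0.

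The genes whose pattern was most like that of the 7 were found by Pearson correlation with their mean log2(TPM + 1) over the 18 libraries, which share groups and are not independent. They were Gbp4 (r = 0.993), Gm4841 (0.985), Gbp6 (0.980), Gbp2 (0.979), Gbp3 (0.976), Cxcl10 (0.974), Cxcl9 (0.972), Gm12250 (0.971), AW112010 (0.963) and Ubd (0.958). Among these, Cxcl9 and Cxcl10 encode chemokines that attract T cells; Cxcl9 rose by 3.80 in 6419c5 (limma adjusted p = 3.87e-06) and 5.01 in 6694c2 (limma adjusted p = 6.96e-08). Taken 1 by 1, Irgm1 was nearest to Irgm2 (r = 0.991), Tgtp1 to Tgtp2 (0.993), Igtp to Gm12250 (0.990), Iigp1 to Gm4841 (0.983) and Gvin1 to AW112010 (0.973). Between 2 of the 7 genes r ran from 0.920 to 0.993.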

How the data were processed

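RNA sequencing of 18 libraries in 6 groups was used as 1 table of 24493 genes. The deposited unit is TPM, which per the submitters' processing notes the authors obtained with Salmon on mm10; the version and annotation are not given in the sources used here. A batch is mentioned in the table's name alone, and any adjustment for it is not given in the sources used here. Its columns letter the clones A and B, read here as KO1 and KO2.

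The 13422 genes averaging 1 TPM or more were put on the scale log2(TPM + 1). In R 4.3.3, limma 3.58.1 estimated 6 group means, leaving 12 residual degrees of freedom, with a mean-variance trend; p was adjusted by Benjamini-Hochberg across the tested genes, with a threshold of 0.05. The fit was tested on simulated data. All 7 genes are named throughout; of other lists, pathway genes and at most 4 genes of the largest difference. Motifs, shared words and promoter identity were computed with Python 3.11.15. The 7 genes, the lists and the comparisons were chosen with earlier results of these data known. In the list of signalling genes, 1 gene is not reported here. Other scalings, filters, pseudocounts, a macrophage covariate, a replicate block and leaving out each library were tried. TPM hold no depth, so no counting interval is given.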

Additional observations from a re-analysis of the deposited data

Results flagged for a closer look

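The knockout effect differed between the lines for 3 of the 7 genes by the test of the difference itself, 6694c2 minus 6419c5, in the fit over all tested genes. Of all tested genes, 5.78% were called higher in that test. The difference on the log2 scale was 1.31 for Irgm1, 1.19 for Irgm2 and 1.35 for Igtp, in each case a larger rise in 6694c2. In the same 3 genes WT 6694c2 was below WT 6419c5, by log2 differences of -0.79, -0.77 and -0.58. In that WT comparison 32.2% of tested genes were called lower, and Igtp did not pass with quantile normalization or median-of-ratios scaling. In each line KO1 and KO2 were above WT in all libraries, as for 4.6% of tested genes in 6419c5 and 13.2% in 6694c2. No group held more than 3 libraries, too few for a test of single values far from the rest of a group.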

How the results depend on the processing

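The count of 7 genes called higher in KO was kept in each line, over both lines and in each clone under each of the alternatives tried, except that with Tgtp1 and Tgtp2 summed it was 6 of 6 features; no log2 difference changed sign among those that had been called. The least stable count was that of 6694c2 KO2 against KO1, 3 genes: it was 6 with a pseudocount of 5, 1 with median-of-ratios scaling, 0 with the macrophage index as a covariate, 1 without 6419c5 WT replicate 3, 6694c2 KO1 replicate 1 and 6694c2 KO2 replicate 3 together, 2 with Tgtp1 and Tgtp2 summed, and 1 in a fit of 1 line alone, and it ran from 0 to 5 when single libraries were left out. The cause was not tested. The labels do not say what a replicate number shares. In their deviations from group means, same-numbered libraries of a line correlated above 0.1 in 5 of 18 pairs (range -0.38 to 0.48). Differently numbered libraries were not compared, so this cannot settle whether libraries were paired. With the replicate block the count of 6694c2 KO2 against KO1 was 0 (6 at an unadjusted p under 0.05), while the counts of KO against WT stayed at 7. The line difference was called for 3 or 4 genes, 6419c5 KO2 against KO1 for 4 or 5, and WT 6694c2 against WT 6419c5 for 2 to 4. Summing Gvin1 with Gm4070, chosen after seeing the data, added Gvin1 to the line difference (1.61, limma adjusted p = 0.0311). The 3 libraries per group and the unknown depth limit the precision of the low WT levels.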
